A study of Homo sapiens with 24 samples.

Results

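The 10 genes described here serve autophagy and the lysosome: SQSTM1, MAP1LC3B, GABARAPL1, ULK1, WIPI1, ATG5, ATG12, BECN1, TFEB and LAMP1. They were chosen by name, each was represented by the probe set with the highest mean over all arrays among those annotated to that gene alone, and all 10 were among the 18274 genes measured. The cells were Huh7.5.1, which derive from a human liver tumour, and they received either silymarin, which is extracted from milk thistle seeds, or its solvent DMSO. Silymarin was given for 4 h (4 arrays), 8 h (3 arrays) or 24 h (3 arrays), and DMSO alone for 4 h (4 arrays), 8 h (5 arrays) or 24 h (5 arrays). Every sample title carries the word novirus, no sample carries a genetic change in its labels, and the silymarin dose was not stated. RNA of the 24 samples was read on 24 microarrays (Affymetrix Human Gene 1.0 ST), where a set of probes along its transcript reports each gene. Whether replicates were separate cultures is not stated, and p-values therefore cover only the spread among these samples, which may be technical. Values are log2 expression as the authors deposited them, and means of 3 to 5 arrays are of limited precision.

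Autophagy encloses cytoplasm in a double membrane, the autophagosome, which then fuses with the lysosome so that its content is degraded. The ULK1 kinase starts the process when the growth kinase mTOR is inactive, a lipid kinase complex built on BECN1 marks the forming membrane with a phosphoinositide, and WIPI1 binds that lipid. The ATG12 and ATG5 conjugate then helps to attach small ubiquitin-like proteins of the ATG8 family, among them MAP1LC3B and GABARAPL1, to the membrane, and SQSTM1 (p62) tethers ubiquitin-tagged cargo to them. TFEB is a transcription factor that switches on lysosome and autophagy genes when nutrients are short, and LAMP1 is an abundant glycoprotein of the lysosomal membrane. In the liver, autophagy turns over mitochondria, glycogen and lipid droplets, and SQSTM1 protein accumulates where autophagy is blocked. The arrays measured RNA, which shows neither the flux through autophagy nor the lipid-bound form of MAP1LC3B.

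The 24 arrays fell into 2 sets that the labels did not explain. DDIT4, a stress-induced inhibitor of mTOR signalling, had no value between 8.35 and 9.67. It was at least 9.67 on 10 arrays and at most 8.35 on the other 14. The 10 arrays with high DDIT4 were silymarin replicate 1 and DMSO replicates 1 and 4 at 4 h, silymarin replicates 1 and 3 and DMSO replicates 1, 4 and 5 at 8 h, and silymarin replicate 1 and DMSO replicate 3 at 24 h. CHAC1, a stress-induced enzyme that degrades glutathione, was at least 10.34 on these 10 arrays and at most 9.35 on the other 14. Each labelled group thus held arrays of both sets, in unequal shares. The labels were kept as deposited, whether every array carries its own label was not tested, and each difference of silymarin minus DMSO rests on them. The array medians lay between 7.04 and 7.18. Of the 12 hepatocyte markers listed, 11 were measured, with means between 11.44 for AHSG and 13.34 for ALB. Means of single markers lay between 4.33 and 8.45 for macrophages, between 3.38 and 7.77 for fibroblasts and between 5.32 and 6.89 for endothelial cells.

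TFEB and its relatives bind a CACGTG core, which sits inside the longer lysosomal element named CLEAR. The promoter windows of RefSeq (GRCh38.p14, 250 bases before to 50 bases after each gene's start) were searched on both strands for these letters, for TGATGNAA, a form of the ATF4 response element, and for TGACNNNGC, a core of the NRF2 antioxidant element. All 10 genes had at least 1 window, 15 windows in all. LAMP1 held 6 CACGTG cores, at offsets of -192, -176, -159, -142, -28 and -1 from the start. It was the single window of all 35116 with as many. At least 1 CACGTG core was present in 1 of the 15 windows, or 6.67%, and in 7.26% of all windows. A TGACNNNGC match was present in MAP1LC3B and LAMP1, and in 13.3% of all windows. In LAMP1 that match overlaps the outermost CACGTG core. The full CLEAR element was in none of the 15 windows and in 0.353% of all windows, and TGATGNAA in none of the 15 and in 3.62% of all windows. The windows of SQSTM1, GABARAPL1, ULK1 and WIPI1, and those of ATG5, ATG12, BECN1 and TFEB, held none of these letters. Both windows with a match are given 5′ to 3′ on the plus strand, with the matched letters in capitals, LAMP1 at chr13:113296989-113297288 and MAP1LC3B at chr16:87392086-87392385.
LAMP1: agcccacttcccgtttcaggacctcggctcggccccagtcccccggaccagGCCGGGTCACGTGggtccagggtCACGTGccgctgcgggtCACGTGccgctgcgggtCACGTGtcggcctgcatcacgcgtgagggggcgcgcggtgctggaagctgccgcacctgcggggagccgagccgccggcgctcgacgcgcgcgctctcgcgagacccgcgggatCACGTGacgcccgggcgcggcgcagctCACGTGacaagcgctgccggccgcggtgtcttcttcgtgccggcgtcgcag
MAP1LC3B: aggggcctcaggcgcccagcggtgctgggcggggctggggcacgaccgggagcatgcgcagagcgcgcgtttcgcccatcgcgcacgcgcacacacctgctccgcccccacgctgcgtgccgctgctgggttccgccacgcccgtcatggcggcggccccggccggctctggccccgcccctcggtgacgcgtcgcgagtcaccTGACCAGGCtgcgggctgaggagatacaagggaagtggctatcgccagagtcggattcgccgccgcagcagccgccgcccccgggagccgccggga
Of the 94 measured genes of the wider pathway list, 76 had a window under their gene number. CACGTG was present for 17 of the 76, or 22.4% of genes, against 8.77% of all genes with a window. TGACNNNGC was present for 23.7% against 16.1%, and TGATGNAA for 2.63% against 4.46%. The list was chosen by known role, and these shares were not tested. The CLEAR element was present for 3 of the 76, the lysosomal channel gene MCOLN1, the acid glucosidase GAA and the proton pump subunit ATP6V1G1. A match is a description of the letters and does not show binding. The absence of a match does not show that a gene lacks such an element, since sequence outside these short windows and other letters were not searched.

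SQSTM1, the cargo receptor, varied most between replicates. At 4 h it was 12.25, 11.91, 11.75 and 11.92 in silymarin replicates 1 to 4, and 12.04, 11.99, 11.74 and 12.29 in DMSO replicates 1 to 4. At 8 h it was 12.30, 12.07 and 12.33 in silymarin, and 12.03, 11.94, 11.79, 12.04 and 12.31 in DMSO. At 24 h it was 12.27, 11.78 and 11.70 in silymarin, and 11.84, 11.75, 12.27, 11.79 and 12.05 in DMSO. The 2 labels overlapped at every time point, and within each of the 6 groups the arrays with high DDIT4 stood at the top. The lowest SQSTM1 value on the 10 arrays with high DDIT4 was 12.03, and 12 of the other 14 arrays lay below it. The exceptions were silymarin replicate 2 at 8 h and DMSO replicate 5 at 24 h, at 12.07 and 12.05. The SD within labelled groups was 0.22, wider than for 92.2% of genes, where the median gene had 0.12. The part of whatever set the arrays of high DDIT4 apart in this spread was not tested. How many of all genes differ as far between the 2 sets was not counted, here or for the genes below.

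The ATG8 genes GABARAPL1 and MAP1LC3B encode proteins that coat the autophagosome membrane. GABARAPL1 at 4 h was 10.83, 10.53, 10.43 and 10.58 in silymarin, and 10.67, 10.63, 10.63 and 10.80 in DMSO. At 8 h it was 10.76, 10.68 and 10.80 in silymarin, and 10.63, 10.67, 10.63, 10.50 and 10.87 in DMSO. At 24 h it was 10.96, 10.25 and 10.37 in silymarin, and 10.69, 10.60, 10.85, 10.53 and 10.65 in DMSO. Silymarin at 24 h thus held both the highest and the lowest GABARAPL1 value of the 24 arrays, in replicates 1 and 2, which had DDIT4 at 10.16 and 8.15. Its SD at 24 h was 0.38 in silymarin (n = 3) and 0.12 in DMSO (n = 5).

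MAP1LC3B at 4 h was 8.71, 8.30, 8.25 and 8.75 in silymarin, and 8.39, 8.48, 8.33 and 8.73 in DMSO. At 8 h it was 8.72, 8.55 and 8.52 in silymarin, and 8.44, 8.37, 8.33, 8.34 and 8.48 in DMSO. At 24 h it was 8.50, 8.54 and 8.14 in silymarin, and 8.37, 8.27, 8.57, 8.32 and 8.34 in DMSO. The labels overlapped at 4 h and 24 h and did not at 8 h. The highest of the 24 values was in silymarin replicate 4 at 4 h, an array with DDIT4 at 7.69, which does not lie on the side of high DDIT4. Deviations from the group means had a Pearson correlation with those of DDIT4 of 0.49 for MAP1LC3B and 0.85 for SQSTM1 over the 24 arrays. These arrays fall into 2 sets. Within the sets, correlations were taken on log2 values without the group means subtracted. In the same order of genes they were -0.31 and -0.15 over the 14 arrays with low DDIT4. Over the 10 arrays with high DDIT4 they were 0.35 and 0.52. A further probe set is annotated to both MAP1LC3B and the near-identical MAP1LC3B2 and was not used, since its signal cannot be assigned to 1 of them. It lay between 11.80 and 12.24, and over 24 arrays its deviations from the group means correlated with those of the MAP1LC3B probe set (Pearson's r 0.61, Spearman's rho 0.57). On that probe set the labels overlapped at 8 h, with 12.08, 12.04 and 12.18 in silymarin, and 12.06, 12.06, 11.81, 12.07 and 12.18 in DMSO.

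ULK1, the initiating kinase, had the widest range of the 10 genes, 0.80 from its lowest to its highest array. At 4 h it was 9.81, 9.01, 9.03 and 9.24 in silymarin, and 9.31, 9.30, 9.27 and 9.43 in DMSO. Silymarin at 4 h held both ends of the range, in replicates 1 and 2. At 8 h ULK1 was 9.26, 9.31 and 9.40 in silymarin, and 9.44, 9.39, 9.29, 9.38 and 9.53 in DMSO. At 24 h it was 9.54, 9.24 and 9.08 in silymarin, and 9.33, 9.28, 9.41, 9.24 and 9.22 in DMSO, and the labels overlapped at every time point. The SD within groups was 0.18, wider than for 86.2% of genes.

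WIPI1, which binds the lipid mark on the forming membrane, was 10.82, 10.41, 10.47 and 10.53 in silymarin at 4 h, and 10.61, 10.53, 10.59 and 10.86 in DMSO. At 8 h it was 10.62, 10.78 and 10.82 in silymarin, and 10.70, 10.57, 10.54, 10.76 and 10.79 in DMSO. After 24 h WIPI1 was 10.73, 10.67 and 10.66 in silymarin, and 10.53, 10.70, 10.64, 10.52 and 10.49 in DMSO. The labels overlapped at each time point. All 10 arrays with high DDIT4 had WIPI1 of at least 10.61, and 10 of the other 14 lay below that value. The within-group SD of WIPI1 was 0.12, close to that of the median gene.

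**Figure D1:**
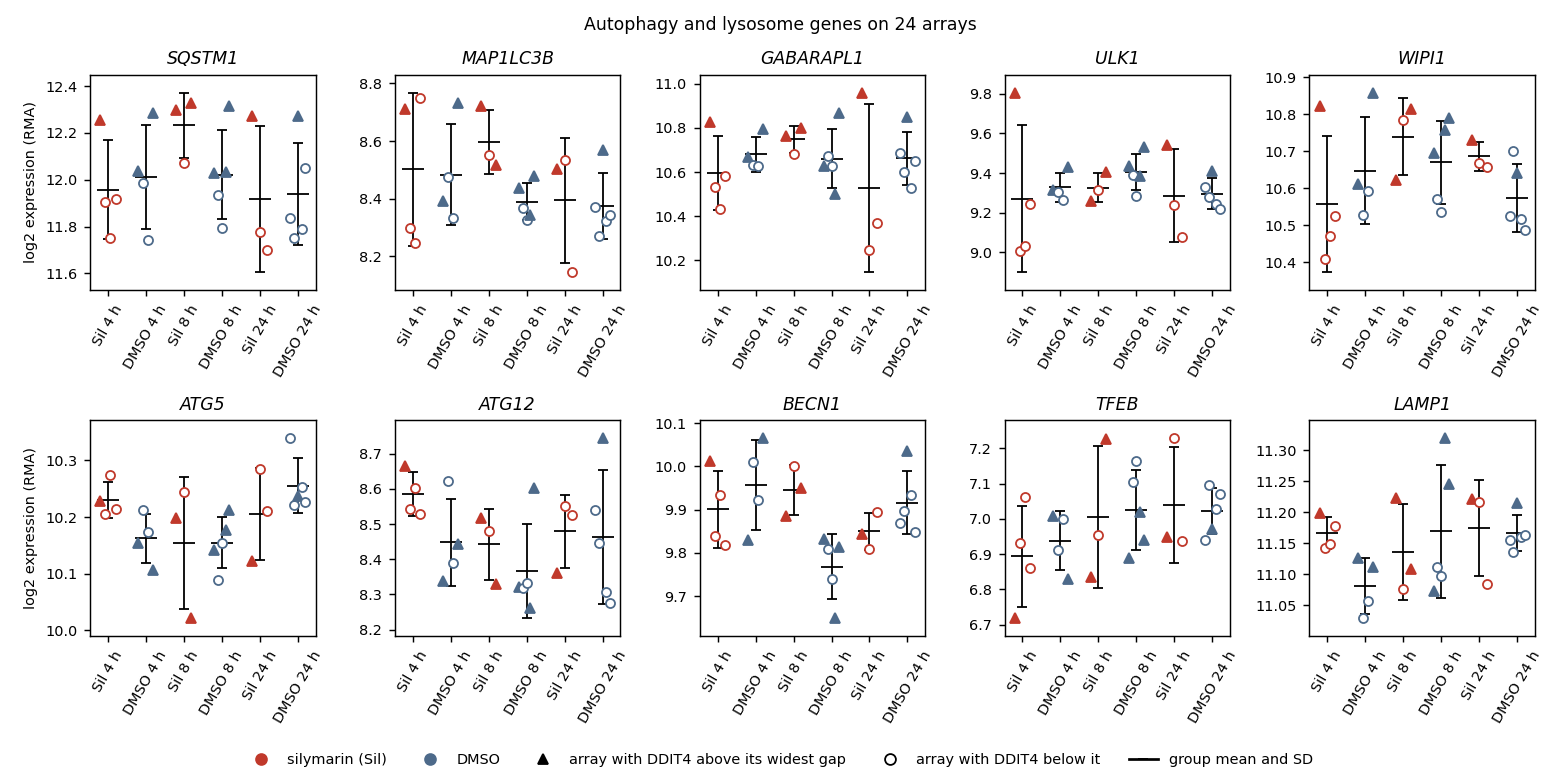
Log2 expression of the 10 genes (vertical axes, a separate scale for each gene) in the 6 labelled groups, 1 point per array, with the group mean and SD as black bars. Filled triangles are the 10 arrays with DDIT4 of at least 9.67 and open circles the other 14. SQSTM1 is 12.03 or higher on every triangle, while triangles and circles overlap widely for ATG5, ATG12, BECN1 and TFEB.

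BECN1, the scaffold of the lipid kinase complex, was among the steadiest of the 10 genes, with an SD within groups of 0.08, and 9.07% of genes had a smaller one. At 8 h it was 9.89, 10.001 and 9.95 in silymarin, and 9.83, 9.81, 9.74, 9.65 and 9.81 in DMSO, so that the labels did not overlap. At 4 h it was 10.01, 9.84, 9.94 and 9.82 in silymarin, and 9.83, 10.01, 9.92 and 10.07 in DMSO. After 24 h BECN1 lay between 9.81 and 9.90 in silymarin and between 9.85 and 10.03 in DMSO. DMSO at 8 h had the lowest mean of the 6 groups, 9.77 ± 0.07 (SD, n = 5), and the other 5 group means lay between 9.85 and 9.96.

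LAMP1, the lysosomal membrane protein, had an SD within groups of 0.07, and 4.31% of genes had a smaller one. At 4 h it was 11.20, 11.14, 11.15 and 11.18 in silymarin, and 11.13, 11.03, 11.06 and 11.11 in DMSO, with no overlap. At 8 h it was 11.22, 11.08 and 11.11 in silymarin, and 11.07, 11.11, 11.10, 11.32 and 11.25 in DMSO. After 24 h LAMP1 was 11.22, 11.22 and 11.08 in silymarin, and lay between 11.14 and 11.22 in DMSO. The highest value of the 24 arrays was in DMSO replicate 4 at 8 h, an array with DDIT4 at 10.28. Deviations of LAMP1 from the group means had a Pearson correlation with those of DDIT4 of 0.64 over the 24 arrays. On log2 values it was 0.28 within the arrays of low DDIT4 and 0.75 within those of high DDIT4. Over the 24 arrays, deviations gave 0.67 for WIPI1, 0.65 for ULK1 and 0.61 for GABARAPL1. They gave 0.20 for BECN1, 0.19 for ATG12, -0.29 for ATG5 and -0.43 for TFEB.

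The conjugation genes ATG5 and ATG12 and the regulator TFEB overlapped between the labels at every time point. ATG5 had the smallest within-group SD of the 10 genes, 0.06, and all its values lay between 10.02 and 10.34. ATG12 lay between 8.26 and 8.74, with both of its ends in DMSO, replicate 4 at 8 h and replicate 3 at 24 h. TFEB lay between 6.72 and 7.23, with an SD within groups of 0.13. Its lowest array was silymarin replicate 1 at 4 h, the array with the highest DDIT4, at 10.34, and the highest ULK1.

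Silymarin was compared with DMSO at each time point in a limma model of all 24 arrays, with p-values adjusted by Benjamini-Hochberg over all 18274 genes and a threshold of 0.05. In RNA from whole cultures, fewer cells of a kind and less RNA per cell cannot be told apart. At 4 h, 4 of the 10 genes had a positive difference and 6 a negative one, and the median log2 difference was -0.05. Among all genes, 47.5% were positive and the median was -0.01. limma called 0 of the 10 genes at 4 h, where it called 0% of all genes, and 0 of the 10 had an unadjusted p under 0.05, against 2.48% of all genes. The largest difference was that of ATG12, which averaged 8.58 ± 0.06 in silymarin and 8.45 ± 0.12 in DMSO (SD, n = 4 each). It differed by 0.14 (SE 0.09, 95% confidence interval -0.05 to 0.33). LAMP1 differed by 0.09 (SE 0.06) and was the 1 gene of the 10 whose labels did not overlap, with silymarin higher. Of all genes 2.18% did not overlap, 0.629% with silymarin higher and 1.55% with silymarin lower. All 10 genes had limma's adjusted p = 0.99993. SQSTM1 differed by -0.05 (95% confidence interval -0.35 to 0.24), and these data do not show whether a difference within that interval exists.

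At 8 h, 6 of the 10 genes had positive differences and the median was 0.07, while 42.0% of all genes were positive, with a median of -0.02. The mean of SQSTM1 was 12.23 ± 0.14 with silymarin (SD, n = 3), against 12.02 ± 0.19 with DMSO (SD, n = 5), and they differed by 0.21 (SE 0.15, 95% confidence interval -0.09 to 0.51). The mean of MAP1LC3B was 8.60 ± 0.11 with silymarin (SD, n = 3), against 8.39 ± 0.07 with DMSO (SD, n = 5), and they differed by 0.21 (SE 0.11, 95% confidence interval -0.03 to 0.44). The mean of BECN1 was 9.95 ± 0.06 with silymarin (SD, n = 3), against 9.77 ± 0.07 with DMSO (SD, n = 5), and they differed by 0.18 (SE 0.06, 95% confidence interval 0.04 to 0.31). Its unadjusted limma p was 0.0112 and limma's adjusted p = 0.991. limma called 0 of the 10 genes and 0% of all genes, and BECN1 was the 1 gene of the 10 with an unadjusted p under 0.05, against 3.93% of all genes. MAP1LC3B and BECN1 were the 2 genes whose labels did not overlap, both with silymarin higher. Of all genes 2.93% did not overlap, 0.947% with silymarin higher and 1.99% with silymarin lower. Silymarin held 2 of 3 arrays with high DDIT4 at 8 h, and DMSO 3 of 5.

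At 24 h, 5 of the 10 genes had positive differences and the median was -0.001, against 56.0% of all genes and a median of 0.01. The mean of WIPI1 was 10.69 ± 0.04 with silymarin (SD, n = 3), against 10.57 ± 0.09 with DMSO (SD, n = 5), and they differed by 0.11 (SE 0.09, 95% confidence interval -0.07 to 0.30). GABARAPL1 differed by -0.14 (SE 0.12, 95% confidence interval -0.38 to 0.11). Without silymarin replicate 1 the GABARAPL1 difference was -0.35, and without silymarin replicate 2 it was 0.003. limma called 0 of the 10 genes and 0% of all genes, and 0 of the 10 had an unadjusted p under 0.05, against 3.03% of all genes. Each of the 10 had limma's adjusted p = 0.99971, and the labels overlapped for all 10. Of all genes 1.95% did not overlap, 1.18% with silymarin higher and 0.772% with silymarin lower.

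**Figure D2:**
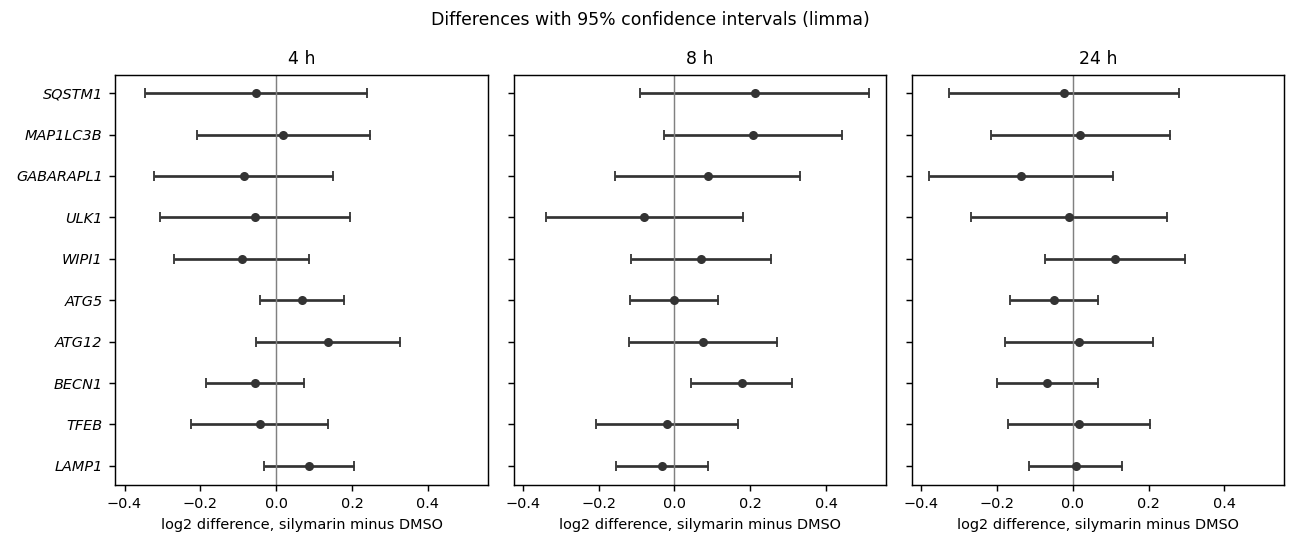
Log2 difference of silymarin minus DMSO (horizontal axis) for the 10 genes at 4 h, 8 h and 24 h, with 95% confidence intervals from limma as bars. Only the interval of BECN1 at 8 h, 0.04 to 0.31, leaves out 0, before adjustment over all genes.

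Since both sets of arrays occurred in every labelled group, the same contrasts were also fitted within each set, with the labels kept. Among the 14 arrays with low DDIT4, BECN1 at 8 h differed by 0.23, and among the 10 with high DDIT4 by 0.15. MAP1LC3B at 8 h differed by 0.21 and 0.20, and SQSTM1 at 8 h by 0.21 and 0.19, in the same order. These values rest on 1 silymarin and 2 DMSO arrays with low DDIT4 and on 2 silymarin and 3 DMSO arrays with high DDIT4, too few to show whether the differences are alike in both sets. LAMP1 at 4 h differed by 0.11 with low DDIT4 and 0.08 with high DDIT4. GABARAPL1 at 24 h differed by -0.31 with low DDIT4, over 2 silymarin and 4 DMSO arrays, and by 0.11 with high DDIT4, over 1 array of each label. ULK1 at 4 h differed by -0.19 with low DDIT4 and by 0.43 with high DDIT4, where silymarin was the single array at 9.81. limma called none of the 10 genes in either set, and over all alternatives tried the lowest adjusted p of the 10 was 0.552.

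**Figure D3:**
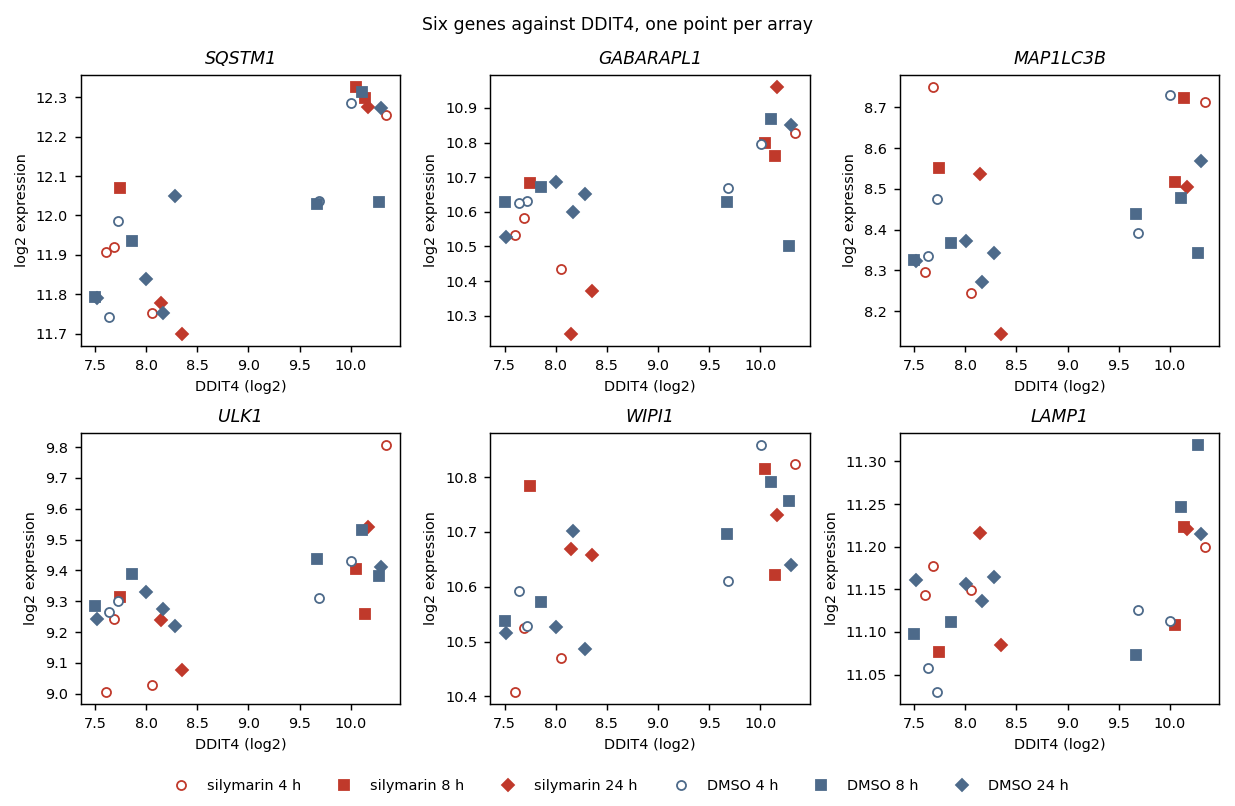
Log2 expression of 6 of the genes (vertical axes) against DDIT4 (horizontal axes), 1 point per array, coloured by treatment and shaped by time. No array lies between 8.35 and 9.67 on the DDIT4 axis, and the 10 arrays to the right have SQSTM1 of at least 12.03.

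Averaged over the 3 time points, the difference of silymarin minus DMSO lay between -0.05 for ULK1 and 0.08 for MAP1LC3B, and each of the 10 genes had limma's adjusted p = 0.99986. SQSTM1 had an averaged difference of 0.04 (95% confidence interval -0.13 to 0.22) and LAMP1 of 0.02 (95% confidence interval -0.05 to 0.09). limma called 0 of the 10 genes and 0% of all genes, and 0 of the 10 had an unadjusted p under 0.05, against 2.83% of all genes. The change of the silymarin difference between time points was tested as an interaction. The estimate for BECN1 was 0.23 (SE 0.09) for 8 h minus 4 h (limma's adjusted p = 0.99982) and -0.24 (SE 0.09) for 24 h minus 8 h (limma's adjusted p = 0.950), and BECN1 was the 1 gene of the 10 with an unadjusted p under 0.05 in each. SQSTM1 had estimates of 0.27 and -0.23 for the same steps. These 2 interactions share the arrays of 8 h. limma called 0 of the 10 genes in each of the 3 interactions, where unadjusted p-values under 0.05 were found for 2.37% of all genes (8 h minus 4 h), 4.08% (24 h minus 8 h) and 3.02% (24 h minus 4 h).

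The DMSO arrays gave the background of the time course. BECN1 in DMSO averaged 9.77 ± 0.07 (SD, n = 5) at 8 h and 9.96 ± 0.10 (SD, n = 4) at 4 h, a difference of -0.19 (SE 0.06). Its unadjusted limma p was 0.00414 and limma's adjusted p = 0.739, and it was the 1 gene of the 10 with an unadjusted p under 0.05. The DMSO arrays of 8 h also serve the comparison with silymarin at 8 h, so both differences of BECN1 draw on the same low values. The other 9 genes differed by between -0.09 and 0.09 from 4 h to 8 h in DMSO. At 24 h against 4 h, all 10 genes lay between -0.11 for MAP1LC3B and 0.09 for ATG5, with limma's adjusted p = 0.99992 for ATG5. limma called 0 of the 10 genes in both comparisons and 0% of all genes, with an unadjusted p under 0.05 for 6.50% of all genes at 8 h and 1.70% at 24 h.

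The wider pathway list held 94 measured genes, 84 of them beside the 10 genes above. At 4 h, 37 of the 84 had positive differences (median -0.01), at 8 h 35 (median -0.01) and at 24 h 33 (median -0.02). limma called 0 of the 84 in any direction at any of the 3 time points, and 1, 2 and 1 of them had an unadjusted p under 0.05 at 4 h, 8 h and 24 h, where 2.48%, 3.93% and 3.03% of all genes did. Of all genes, 47.5% had positive differences at 4 h, 42.0% at 8 h and 56.0% at 24 h, with medians of -0.01, -0.02 and 0.01, and the counts by role that follow stand beside these shares with no test. Lysosomal hydrolases and their cofactors had 3 of 19 positive at 4 h (median -0.03), 8 at 8 h (median -0.01) and 9 at 24 h (median -0.01). Lysosomal membrane genes had 6, 4 and 6 of 9 positive at the 3 time points. The proton pump of the lysosome had 8, 7 and 5 of 15 subunits positive, with a median of -0.05 at 24 h. TFEB and its relatives and regulators had 4, 2 and 6 of 6 positive at the 3 time points, with medians of 0.03, -0.04 and 0.02. At 24 h their differences lay between 0.01 and 0.06. Conjugation genes, counted with the ATG4 proteases that process ATG8 proteins, had 7, 4 and 1 of 10 positive.

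Among these 84 genes, those with the smallest p at 4 h were CD63, MAP1LC3A, BNIP3L and MAP1LC3C. CD63, a tetraspanin of late endosomes and lysosomes, averaged 10.59 ± 0.13 in silymarin and 10.42 ± 0.08 in DMSO (SD, n = 4 each), a difference of 0.17 (SE 0.08). BNIP3L, a receptor for the removal of mitochondria, differed by -0.17 (SE 0.10). At 8 h ATG101, a partner of ULK1 in the initiation complex, had a mean of 9.61 ± 0.03 with silymarin (SD, n = 3), against 9.40 ± 0.12 with DMSO (SD, n = 5). It differed by 0.21 (SE 0.06), with an unadjusted limma p of 0.00309 and limma's adjusted p = 0.991. ATG101 was 9.64, 9.62 and 9.58 in silymarin, and 9.48, 9.42, 9.30, 9.28 and 9.55 in DMSO, with no overlap. ATG2B, which transfers lipid to the growing membrane, differed by -0.25 (SE 0.10), ATG13 of the initiation complex by 0.14 (SE 0.07) and FNIP2, a partner of folliculin, by -0.15 (SE 0.09). The initiation complex thus gave the smallest p of the list through ATG101, while ULK1 itself differed by -0.08 at 8 h. At 24 h ATG4A, a protease that processes ATG8 proteins, differed by -0.24 (SE 0.09) and the proton pump subunits ATP6V1A, ATP6V1H and ATP6V1D by -0.11, -0.12 and -0.18. Averaged over the time points, the smallest p were those of BNIP3L, MAP1LC3C, CD63 and ATG101, which differed by -0.12 (SE 0.06), -0.07, 0.08 and 0.05. BNIP3L was the 1 of the 84 with an unadjusted limma p under 0.05 in that comparison, against 2.83% of all genes. All of these genes had limma's adjusted p of 0.991 or more over all genes. At 8 h, ATG101 was the 1 of the 84 without overlap that was higher in silymarin, and FNIP2 the 1 that was lower. Of all genes, 0.947% and 1.99% did not overlap in these directions. At 4 h, 1 of the 84 was higher and 2 were lower without overlap, against 0.629% and 1.55% of all genes. At 24 h, 0 were higher and 1 was lower, ATG4A, against 1.18% and 0.772%.

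**Figure D4:**
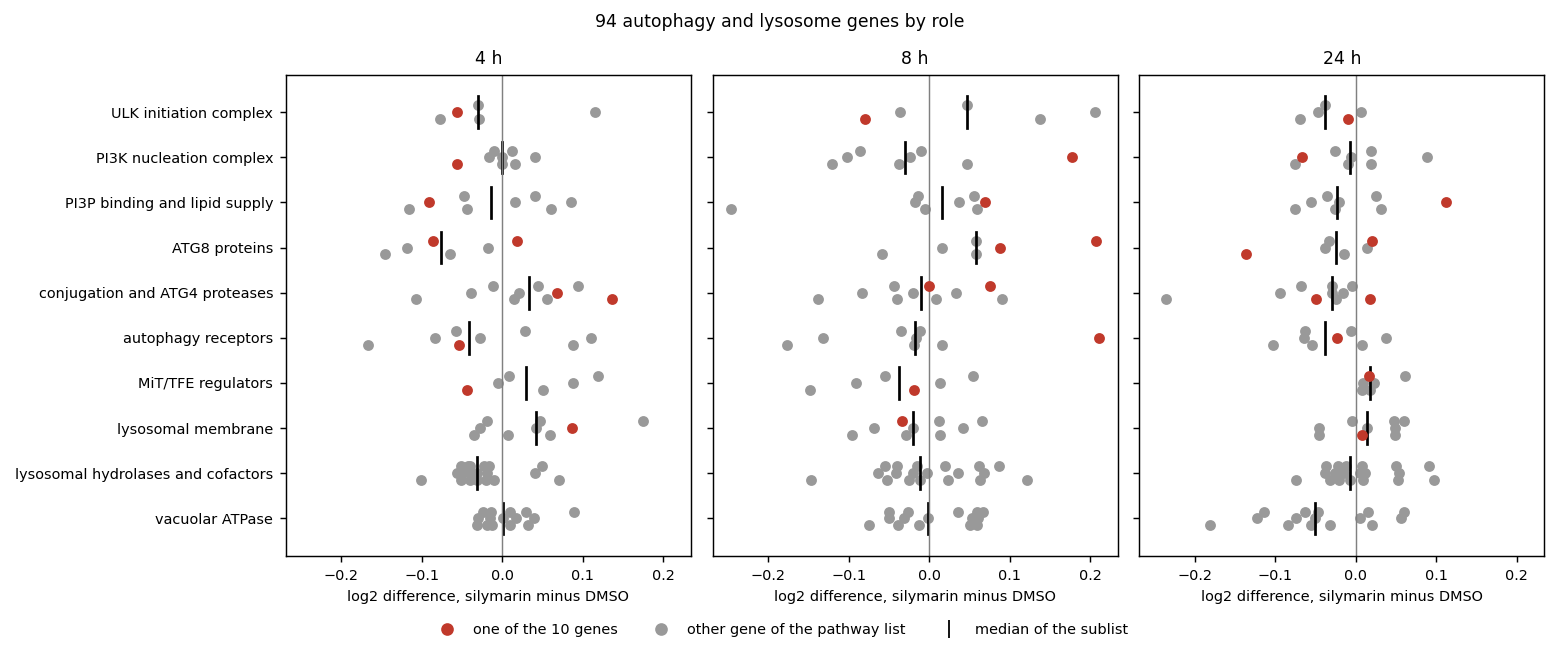
Log2 difference of silymarin minus DMSO (horizontal axis) for 94 autophagy and lysosome genes by role (rows) at 4 h, 8 h and 24 h, with the 10 genes in red, the other 84 in grey and the median of each row as a black line. All points lie between -0.25 and 0.21.

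Pairs of the 10 genes were correlated from array to array to differing degrees. Whether they vary together more than other genes do was not tested, since pairs of other genes were not examined for comparison. After the mean of its labelled group was subtracted from each value, SQSTM1 and GABARAPL1 correlated over 24 arrays with Pearson's r of 0.82 and Spearman's rho of 0.77. The 10 pairs among SQSTM1, GABARAPL1, MAP1LC3B, ULK1 and WIPI1 had Pearson correlations between 0.46 and 0.82, and the other 35 pairs between -0.47 and 0.54. These 5 genes were grouped after their values were seen, and the correlations are given as a description of arrays that share the 2 sets of DDIT4. The correlations within the 2 sets given below are of log2 values without the group means subtracted, and thus another measure. Within the 14 arrays of low DDIT4, the same 10 pairs had correlations between -0.09 and 0.57, and within the 10 arrays of high DDIT4 between 0.20 and 0.83. SQSTM1 and GABARAPL1 had 0.56 and 0.83 in these sets, and SQSTM1 and WIPI1 -0.05 and 0.37. TFEB was the dimmest of the 10 probe sets, between 6.72 and 7.23, where the array medians lay between 7.04 and 7.18. A lower limit of detection could not be set for it. On deviations, TFEB had a negative correlation with each of the other 9 genes over all 24 arrays, from -0.47 with SQSTM1 to -0.18 with LAMP1. In the 10 arrays of high DDIT4 all 9 were negative, from -0.61 with MAP1LC3B to -0.05 with SQSTM1. In the 14 arrays of low DDIT4 the correlations with ULK1, WIPI1 and LAMP1 were 0.17, 0.18 and 0.34, and the other 6 were negative, down to -0.46 with BECN1.

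**Figure D5:**
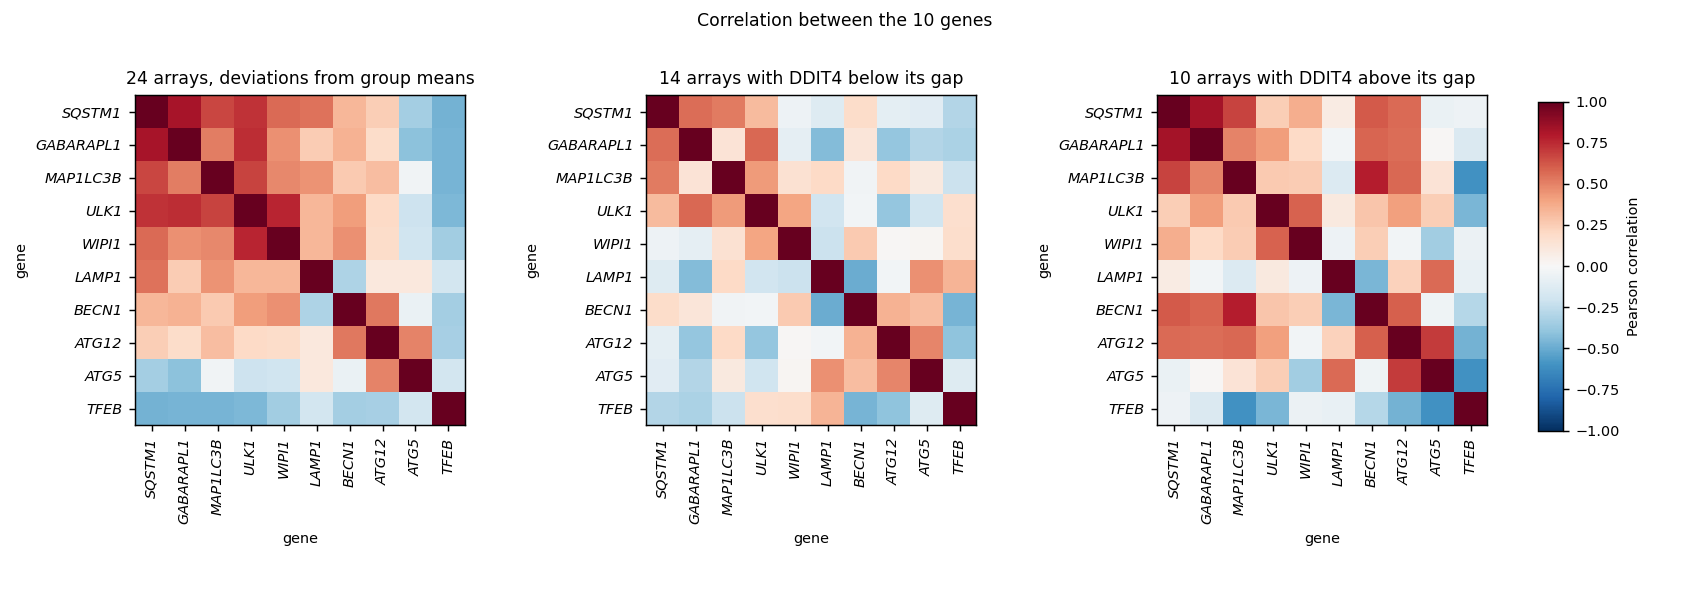
Pearson correlation (colour) between each pair of the 10 genes, from deviations from group means over 24 arrays (left) and from values over the 14 arrays with DDIT4 below its gap (middle) and the 10 above it (right). The block of SQSTM1, GABARAPL1, MAP1LC3B, ULK1 and WIPI1 lies between 0.46 and 0.82 on the left and between -0.09 and 0.57 in the middle.

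Over all 18274 genes, the 3 whose values were most like each member over the 24 arrays were found by Pearson correlation. For SQSTM1 they were CLK2P1 (0.93), PARS2 (0.93) and SRXN1 (0.92). SRXN1, sulfiredoxin, which repairs oxidised peroxiredoxins, had correlations of 0.88 and 0.71 with SQSTM1 within the arrays of low and high DDIT4. For GABARAPL1 they were ACAD8 (0.89), ATG2A (0.86), which supplies lipid to the forming autophagosome, and SPG7 (0.84). ATG2A was the 1 gene of the pathway list among the 30 named in this way, with 0.61 and 0.93 within the arrays of low and high DDIT4. For ULK1 they were PRDM4 (0.92), BLOC1S3 (0.88) and MRPL10 (0.85), for WIPI1 CD55 (0.87), MUTYH (0.86) and ARFGAP1 (0.85), and for MAP1LC3B ZNF550 (0.84), UNC5CL (0.84) and VAMP1 (0.82). Among the other genes, the closest to ATG12 were WRN (0.87), USP53 (0.87) and ZBTB1 (0.87), those to TFEB SSTR3 (0.82), CACNA1G (0.81) and HMX3 (0.80), and those to ATG5 SPAST (0.83), BTBD7 (0.81) and USP12 (0.80). For BECN1 the closest were KCTD10 (0.77), CCDC32 (0.75) and ZNF526 (0.74), and for LAMP1 DNAJB2 (0.75), AFTPH (0.74) and PDE6C (0.72). On deviations from the group means, the closest genes were LCA5L for SQSTM1 (0.94), PRDM4 for ULK1 (0.95), CTSK, a lysosomal protease, for ATG12 (0.88) and RPP38 for BECN1 (0.85). With 24 arrays and 18274 genes, the highest of so many correlations is large by selection, and the values only rank the genes.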

How the data were processed

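The labels describe RNA of Huh7.5.1 cells on Affymetrix Human Gene 1.0 ST arrays. The log2 values deposited by the authors come from RMA in oligo, as the submitters' processing notes name them without a version, and the genome build is not given in the sources used here. RMA normalizes by quantiles, which can hide a shift common to all genes, and compresses differences of dim probe sets. The platform annotation paired 19302 of 28869 probe sets with 1 symbol, and the highest-mean probe set of each symbol left 18274 genes. The reference table changed 0 symbols.

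One limma fit (limma 3.58.1, R 4.3.3) took the 6 labelled groups on 24 arrays, with 18 residual and 5.04 prior degrees of freedom, two-sided tests, Benjamini-Hochberg adjustment over all genes and a threshold of 0.05. The genes, lists and tests were chosen with earlier results of these data known. Named genes were the 10 members, the 4 other pathway genes with the smallest p in each comparison with DMSO, and the 3 genes most like each member. Alternatives left out each array in turn, or all arrays of high or low DDIT4, and changed the normalization, array weights, the filter on dim genes and the replicate block. Probe sets with several symbols (1729) or none listed (7838) were left out. Promoters came from RefSeq, GRCh38.p14. Figures were drawn with matplotlib 3.10.9.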

Additional observations from a re-analysis of the deposited data

Results flagged for a closer look

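Of the 40 sets of 4 or 5 replicates of a member in a labelled group, 2 held an array that stood apart from the rest by Dixon's criterion, and chance alone sets apart about 1 in 20. ATG5 was 10.34 in DMSO replicate 1 at 24 h, against at most 10.25 in the other 4 DMSO arrays. ATG12 was 8.60 in DMSO replicate 5 at 8 h, against at most 8.33 in the other 4.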

How the results depend on the processing

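limma called 0 genes in all 9 comparisons, and 219 of the counts under alternatives were also 0, with 2 exceptions. Repeated quantile normalization called 1 gene at 24 h, RPE65, and the arrays of high DDIT4 alone called 1 gene, FBN1, for the change of the silymarin difference from 4 h to 24 h. The cause was not tested. Both were named after their values were seen, and neither belongs to the pathway list. The 40 differences of the 10 members were recomputed 950 times in all. Several settings, such as the filter on dim genes, change only the p-value and cannot move a member's difference. The counts that follow include them and so overstate how stable the values are. In 933 the value moved by less than the SD within groups, in 17 by more, 15 of them with arrays of only low or only high DDIT4, and the lowest adjusted p was 0.552. The sign changed in 75 of the 950, over 24 of the 40 differences, none of which was called. Leaving out 1 array moved BECN1 at 8 h between 0.15 and 0.21, SQSTM1 at 8 h between 0.15 and 0.29 and MAP1LC3B at 8 h between 0.14 and 0.25. With the replicate number as a block, these 3 differences were 0.17, 0.28 and 0.25, and the replicate block changed no call, with 0 genes called. Same-numbered replicates of the 2 labels had correlations of deviations between -0.14 and 0.43 over all genes. Differently numbered replicates were not compared with them, so these values cannot show whether the numbers pair the samples. Signal over background was not given in the file, so a lower limit of detection could not be set, and TFEB, the dimmest of the 10 probe sets, lay above the floor of 6.27 used to leave out dim genes.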

Other observations

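NEU1, the lysosomal sialidase, is not among the 10 genes and was chosen after its values were seen. It was at least 11.78 on each of the 10 arrays with high DDIT4 and at most 11.75 on each of the other 14. How many of all genes separate the arrays as fully was not counted. The separation was incomplete for the lysosomal hydrolases MANBA and SGSH. For them, 9 and 7 of the 10 arrays with high DDIT4 lay above all of the other 14. MANBA, SGSH and NEU1 were singled out by name, and the rest of the lysosomal hydrolases were not compared between the sets. Whether hydrolases as a class differ between the sets was therefore not tested. Silymarin and DMSO arrays occurred on both sides, with NEU1 at 11.83 in silymarin replicate 1 at 24 h and 11.91 in DMSO replicate 3 at 24 h, both with high DDIT4. In the other arrays of 24 h it was 11.66 and 11.37 in silymarin, and 11.75, 11.57, 11.37 and 11.65 in DMSO. NEU1 was 1 of the 17 pathway genes with a CACGTG core in a promoter window. The part of whatever set the arrays apart in these values was not tested.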
